A study of Mus musculus with 8 samples.

Results

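Replication-dependent histone genes supply new histones for chromatin during S phase, and their reads were followed here in NIH3T3, a fibroblast line from mouse embryos that divides without limit. The members were the rows of the count tables whose symbol begins with Hist1h, Hist2h, Hist3h or Hist4h, which name the 4 histone gene clusters. There were 68 such genes among 23304 gene rows: 6 of the linker histone H1, 18 of H2A, 19 of H2B, 12 of H3 and 13 of H4. Of these, 55 had a read in at least 1 of the 8 libraries, 4 had 10 or more reads in every library, and 13 had none in any library.

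RNA from unedited cells (WT) and from cells in which Zmynd11 was removed by CRISPR (KO) was sequenced in 8 libraries, 2 for each genotype without treatment (0 h) and 2 for each after 2 h with recombinant mouse interferon-beta at 100 units/ml. All groups were the same Swiss albino line, grown in medium with donor bovine serum; the extraction protocol speaks of MEFs, mouse embryonic fibroblasts, where the source is NIH3T3. Neither the number of KO clones nor the origin of replicates from separate cultures is stated, so p-values measure the spread between these libraries, which may be technical. Reads assigned to genes numbered 13671013 to 21299120 per library. The targeted gene goes against some labels: Zmynd11 had 1967 to 2511 reads at the 0 h label in both genotypes and 59 to 72 at the 2 h label. Groups are therefore named only as labelled. The labelled time and the Zmynd11 level cannot be told apart in what follows. Were the labels KO 0 h and WT 2 h exchanged, which was not tested, each difference given between time labels would be one between genotypes, and the reverse. All 6 fibroblast markers listed (Col1a1, Col1a2, Col3a1, Vim, Pdgfrb and Thy1) were present, at 959 or more reads in every library. Of 5 markers of other cells, Cd3e had no read, Krt8 and Epcam at most 4, Pecam1 2 to 11 and Ptprc 49 to 98 per library.

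Core histones H2A, H2B, H3 and H4 form the octamer around which DNA is wrapped, and H1 binds the linker DNA between these particles. Most messenger RNAs end in a poly(A) tail, but those of replication-dependent histones normally end just after a short conserved hairpin, the stem-loop, which the protein Slbp binds. They are made mainly while DNA is copied and are degraded when copying stops. Some of these genes can also give longer, polyadenylated transcripts, which have been described in cells that leave the cycle or differentiate. A library built from poly(A) RNA holds little of the stem-loop form. The labels name total RNA as the molecule, and no source used here says whether poly(A) RNA was selected. Many gene copies are nearly identical, and the tables set reads with several mapping places apart from genes.

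The stem-loop was searched for in the annotated transcripts because it separates these messages from most others. The pattern was read on the transcript's strand as GG, any 3 bases, TT, any base, T, any base, A, any 3 bases and CC, with the first 6 bases complementary to the last 6, which leaves a loop of 4. It was found in the longest coding transcript in GENCODE M21 of 45 of the 68 members, and in 23 of 21810 other genes (0.105%). An absent match says only that these letters are not in the annotated transcript. The hairpins of the members that recur below are shown with 5 bases on either side, the stem-loop in capitals.
Hist1h1c: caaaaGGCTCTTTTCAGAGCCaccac
Hist3h2a: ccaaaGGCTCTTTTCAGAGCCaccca
Hist1h2ac: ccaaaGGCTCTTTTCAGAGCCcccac
Hist1h2be: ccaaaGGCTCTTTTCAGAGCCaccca
Hist1h4i: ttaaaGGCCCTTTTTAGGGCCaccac
The stem differed by histone type. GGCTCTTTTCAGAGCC was the form in 25 members, none of them H4. Of 12 H4 members with a match, 10 had a stem that begins GGCCC and 2 had GGTCCTTTTCAGGACC, whereas no member of another type had either.

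The annotated transcripts of the best-read members continue well past this hairpin or lack it. In Hist1h1c 840 bases follow the stem-loop, and in Hist3h2a 1643 do. The transcripts of Hist1h2bc and Hist2h2be held no match. That of Hist1h2bc has 2 exons, whereas 63 of the 68 members have 1. A poly(A) signal, AATAAA in the last 50 bases, was present in 3 of these 4 genes (Hist1h1c, Hist2h2be and Hist3h2a), in 14 of all 68 members and in 59.3% of other genes. No source used here names the annotation behind the counts, so these features describe the genes and not the sequenced molecules.

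Reads of the whole group were few. They numbered 229 to 724 per library, or 0.00146 to 0.00376% of the reads in genes, and 26 to 37 of the 68 members had any. They were also concentrated in few genes. Hist1h1c, the linker histone H1.2, held 39.0% of all 3746 member reads. The 4 members with 10 or more reads in every library together held 76.1%. The 18 members whose annotated transcript exceeds 1000 bases held 87.1% of the reads, and the other 50 held 12.9%. The 4 well-read genes all belong to those 18.

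How far each member could be told from its copies was described by the share of the 50-base words of its transcript found in no other annotated gene on either strand. The median was 48.1% over the 68 members, and 13 members had less than 10%. Of the 13 members without a read, 7 were under 10%, against 6 of the 51 members that had some reads but fewer than 10 in a library. Hist1h4c and Hist1h4j, both H4 genes, had no read although 80.4% and 75.5% of their words were unique. Of those 51 members with some reads but fewer than 10 in a library, 4 had no unique word in GENCODE M21. Among them, Hist2h3c1, an H3 gene, held 80 reads and Hist2h2bb, an H2B gene, held 60. A lack of unique words in this annotation thus did not exclude reads. A count of 0 in a library allows up to 3 reads, which was 0.138 to 0.210 CPM (reads scaled to a common library size, with TMM factors). This limit covers counting error only.

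**Figure D1:**
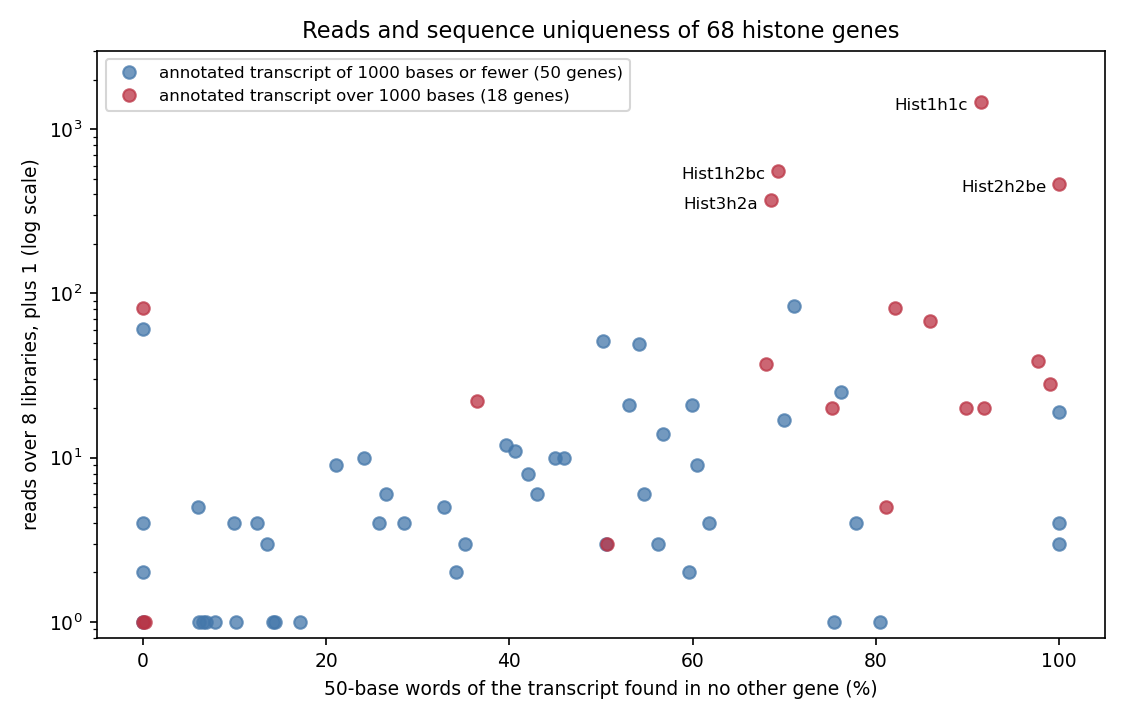
Each of the 68 points is a histone gene, with the share of its 50-base words found in no other gene on the horizontal axis and its reads over 8 libraries plus 1 on a vertical log axis. The 4 labelled genes, which have 10 or more reads in every library, lie above 68% uniqueness, and members without a read sit at the bottom, most of them at the left.

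Summed over all 68 members, the level was 15.3 to 18.6 CPM in the 4 libraries labelled 0 h and 33.3 to 35.4 CPM in the 4 labelled 2 h. The groups did not overlap by time label. Their means were 17.7 ± 1.18 CPM for WT 0 h, 15.96 ± 0.925 for KO 0 h, 35.0 ± 0.575 for WT 2 h and 33.8 ± 0.736 for KO 2 h (mean ± SD, n = 2 each). The genotype labels lay closer together but did not overlap either, with KO lower. At 0 h WT had 18.6 and 16.9 CPM and KO 16.6 and 15.3. At 2 h WT had 34.6 and 35.4 CPM and KO 33.3 and 34.3. These sums are levels in reads, not per length, and carry no test. They were led by H1 and H2B, as the per-type sums show.

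H2B members summed to 3.92 ± 0.192 CPM in WT 0 h, 3.90 ± 0.911 in KO 0 h, 13.6 ± 0.182 in WT 2 h and 13.6 ± 1.62 in KO 2 h (mean ± SD, n = 2 each). H1 members summed to 8.25 ± 2.22, 7.17 ± 0.785, 14.2 ± 0.683 and 13.1 ± 1.32 CPM in the same order. For both types every library labelled 2 h lay above every library labelled 0 h. H2A members summed to 2.1 to 3.59 CPM at 0 h and 3.71 to 4.39 CPM at 2 h, also without overlap but with a smaller gap. H3 members ranged from 0.668 to 1.33 CPM at 0 h and from 1.11 to 1.75 CPM at 2 h, and H4 members from 1.0 to 1.52 and from 1.20 to 2.38 CPM. The H3 and H4 sums thus overlapped between the time labels, and each rested on 10 to 34 reads per library. Such counts cannot resolve small differences.

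**Figure D2:**
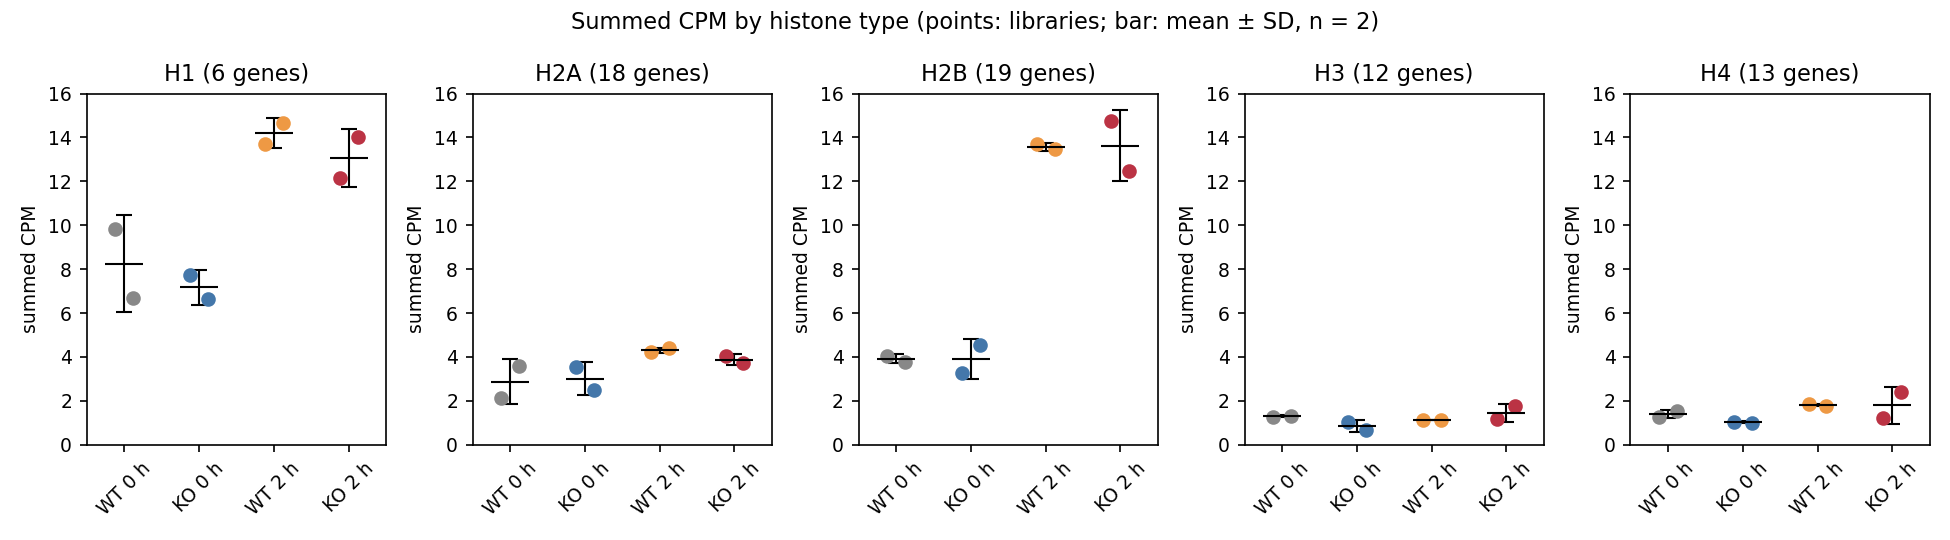
Summed CPM of the members of each histone type in the 4 labelled groups, with points for libraries and bars for the mean ± SD (n = 2). The H2B sum lies between 3.26 and 4.54 CPM in libraries labelled 0 h and between 12.5 and 14.8 CPM in those labelled 2 h, whereas the H3 and H4 ranges overlap.

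The test for single genes was edgeR's quasi-likelihood model over all 8 libraries, with p-values adjusted over the 12807 genes that passed its filter on low counts. Only 10 members passed the filter. Of these, 4 had 10 or more reads everywhere: Hist1h1c, Hist1h2bc, Hist2h2be and Hist3h2a. The line fell between Hist1h2bc, with 11 to 190 reads per library, and Hist1h4i, with 5 to 18, followed by Hist2h3c1, with 4 to 14.

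Hist1h2bc, an H2B gene that lies head to head with Hist1h2ac in the Hist1 cluster, had the widest difference between the time labels among these 4 genes. Its level was 0.782 and 1.03 CPM in the WT 0 h libraries, 0.718 and 0.735 CPM in KO 0 h, 6.80 and 5.84 CPM in WT 2 h, and 8.73 and 5.25 CPM in KO 2 h. All 4 libraries labelled 2 h lay above all 4 labelled 0 h, while the genotypes overlapped at 2 h. The WT libraries differed 6.93-fold, a log2 change of 2.79 ± 0.31 (SE) with an adjusted p of 6.8e-08 by edgeR. The KO libraries differed 9.72-fold, by 3.28 ± 0.34 (SE) with an adjusted p of 1.75e-08 by edgeR. These 2 comparisons share no library.

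Hist1h1c, which encodes H1.2, stood at 9.28 and 6.14 CPM in WT 0 h, 7.23 and 5.61 CPM in KO 0 h, 12.8 and 14.1 CPM in WT 2 h, and 11.4 and 13.4 CPM in KO 2 h. The time labels again did not overlap. It rose 1.74-fold in WT, by 0.80 ± 0.18 (SE) in log2 with an adjusted p of 0.000612 by edgeR, and 1.91-fold in KO, by 0.93 ± 0.19 (SE) with an adjusted p of 0.000238 by edgeR. Tested against a fold of 1.5 in place of no change, neither passed (edgeR adjusted p = 0.149 and 0.0505).

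Hist2h2be, an H2B gene of the Hist2 cluster, stood at 2.20 and 1.87 CPM in WT 0 h, 1.71 and 3.07 CPM in KO 0 h, 4.91 and 4.95 CPM in WT 2 h, and 3.40 and 3.57 CPM in KO 2 h. The WT groups were well apart and the KO groups were separated by a narrow gap. The WT difference passed at 2.42-fold, a log2 change of 1.27 ± 0.28 (SE) with an adjusted p of 0.000456 by edgeR. The KO difference did not (0.56, SE 0.30, edgeR adjusted p = 0.106). It passed when KO 0 h replicate 2 was left out (1.02, edgeR adjusted p = 0.0174). The difference between the WT and KO changes was itself not called (interaction -0.71, 95% interval -1.57 to 0.14, edgeR adjusted p = 0.487).

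Hist3h2a, an H2A gene of the Hist3 cluster, did not pass in either genotype. It stood at 1.61 and 2.65 CPM in WT 0 h, 2.76 and 2.00 CPM in KO 0 h, 2.91 and 2.89 CPM in WT 2 h, and 2.90 and 2.17 CPM in KO 2 h. The 2 libraries of each 0 h group differed from each other by more than the means of the 0 h and 2 h groups did. The WT libraries did not overlap by time, while the KO libraries did. The log2 changes were 0.44 ± 0.32 (SE) for WT, with an adjusted p of 0.236 by edgeR, and 0.10 ± 0.33 (SE) for KO, with an adjusted p of 0.811. GENCODE M21 places Hist3h2a within the bounds of Trim17 on the same strand, and Trim17, a ubiquitin ligase gene, stood at 1.64 to 1.96 CPM in the group means.

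**Figure D3:**
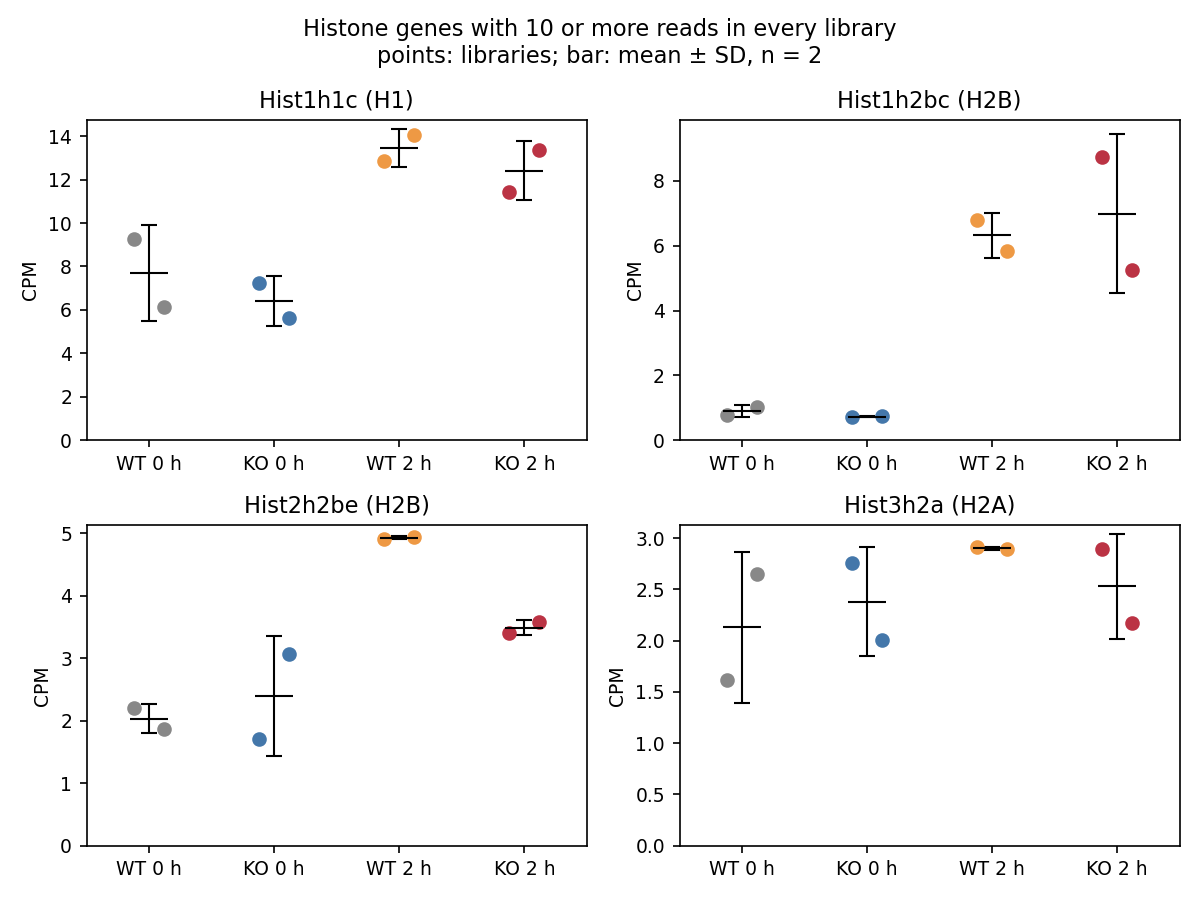
CPM of the 4 members with 10 or more reads in every library, with points for libraries and bars for the mean ± SD (n = 2). Hist1h2bc lies at or below 1.03 CPM in the libraries labelled 0 h and at or above 5.25 CPM in those labelled 2 h, whereas the Hist3h2a ranges overlap.

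Among the 10 tested members, 5 rose and none fell between 0 h and 2 h in the WT labels, where 30.1% of all tested genes were higher and 31.1% lower. In the KO labels 6 rose and none fell, beside 30.0% higher and 31.2% lower. These counts do not describe all members. Hist1h2be and Hist1h2ac reached the filter's level in no library labelled 0 h, and Hist1h2bg and Hist2h2bb reached it only in KO 2 h, so they had to be high there to be tested at all. Of the 4 genes with 10 or more reads in every library, 3 rose in the WT labels and 2 in the KO labels. Their 2 h libraries lay wholly above their 0 h libraries in 4 of 4 genes for WT and in 3 of 4 for KO. Among all tested genes that held for 41.6% in WT and 38.8% in KO, and the reverse for 41.0% and 38.7%.

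Hist1h2ac and Hist1h2be were near the detection limit at 0 h. Both passed the filter only through libraries labelled 2 h, where they were high. Their values between the time labels are therefore given as a description, and their calls support nothing. Hist1h2ac, an H2A gene, had 3 and 4 reads in WT 0 h, 1 and 0 in KO 0 h, 14 and 14 in WT 2 h, and 18 and 13 in KO 2 h. It was called in WT, with a log2 change of 2.12 ± 0.71 (SE) and an adjusted p of 0.0137 by edgeR, and in KO, with 4.56 ± 1.02 (SE) and an adjusted p of 0.000546. With 1 and 0 reads in KO 0 h the KO value is poorly fixed: it was 6.996 without KO 0 h replicate 1 and 3.81 without KO 0 h replicate 2. The WT call was lost when either WT 0 h or either WT 2 h library was left out (edgeR adjusted p 0.0634 to 0.132). Hist1h2be, an H2B gene, had 4 and 0 reads in WT 0 h, 4 and 3 in KO 0 h, 19 and 20 in WT 2 h, and 14 and 17 in KO 2 h. It was called in WT at 3.36 ± 0.81 (SE), with an adjusted p of 0.00108 by edgeR, and in KO at 2.03 ± 0.76 (SE), with an adjusted p of 0.0257. The WT value was 7.28 without WT 0 h replicate 1, which leaves a library with no read, and 2.40 without WT 0 h replicate 2. The KO call was lost without KO 0 h replicate 1 (edgeR adjusted p = 0.0782), KO 0 h replicate 2 (0.0778), KO 2 h replicate 2 (0.169) or either WT 2 h library (0.0511 and 0.0514). Reads of both genes were more numerous in every library labelled 2 h than in any labelled 0 h.

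Hist1h2bg and Hist2h2bb, both H2B genes, passed the filter only through KO 2 h, where they were high, so their reads are given as a description and their KO calls support nothing. Hist1h2bg had 4 and 7 reads in WT 0 h, 0 and 1 in KO 0 h, 6 and 5 in WT 2 h, and 13 and 14 in KO 2 h. Hist2h2bb had 7 and 7, 1 and 3, 8 and 8, and 15 and 11 reads in the same order. For both genes the KO 2 h libraries held the most reads and the KO 0 h libraries the fewest. Hist1h4i and Hist2h3c1 did not pass in either comparison (edgeR adjusted p 0.189 to 0.842).

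Between the genotype labels no member was called. At 0 h edgeR called 0 of 10 members, 1 had an unadjusted p below 0.05 (Hist1h2bg, lower in KO) and DESeq2 called 0, beside 3.92% of all tested genes. At 2 h edgeR called 0 of 10, with 0 at an unadjusted p below 0.05 and 0 by DESeq2, beside 1.60% of all genes (1.59% higher and 0.00781% lower). For the interaction edgeR called 0 of 10, with 1 at an unadjusted p below 0.05 (Hist1h2bg) and 0 by DESeq2, beside 0.133% (0.0547% higher and 0.0781% lower). The 95% intervals of the KO minus WT difference were wide. At 0 h they ran from -0.67 to 0.16 on the log2 scale for Hist1h1c and from -1.24 to 0.61 for Hist1h2bc. For Hist2h2be and Hist3h2a they were -0.44 to 0.86 and -0.51 to 0.85. At 2 h they ran from -0.49 to 0.24 for Hist1h1c and from -0.33 to 0.67 for Hist1h2bc. For Hist2h2be and Hist3h2a they were then -1.06 to 0.05 and -0.83 to 0.48. KO libraries lay wholly below WT libraries for 1 of these 4 genes at 0 h (Hist1h2bc) and 1 at 2 h (Hist2h2be). None lay wholly above. Among all tested genes, 26.3% lay below and 25.2% above at 0 h, and 14.8% and 14.9% at 2 h. Such an interval gives the differences that the data allow for a gene and is not a limit of detection. The intervals of less-read members were wider, as from -5.10 to 0.56 for Hist1h2ac at 0 h.

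**Figure D4:**
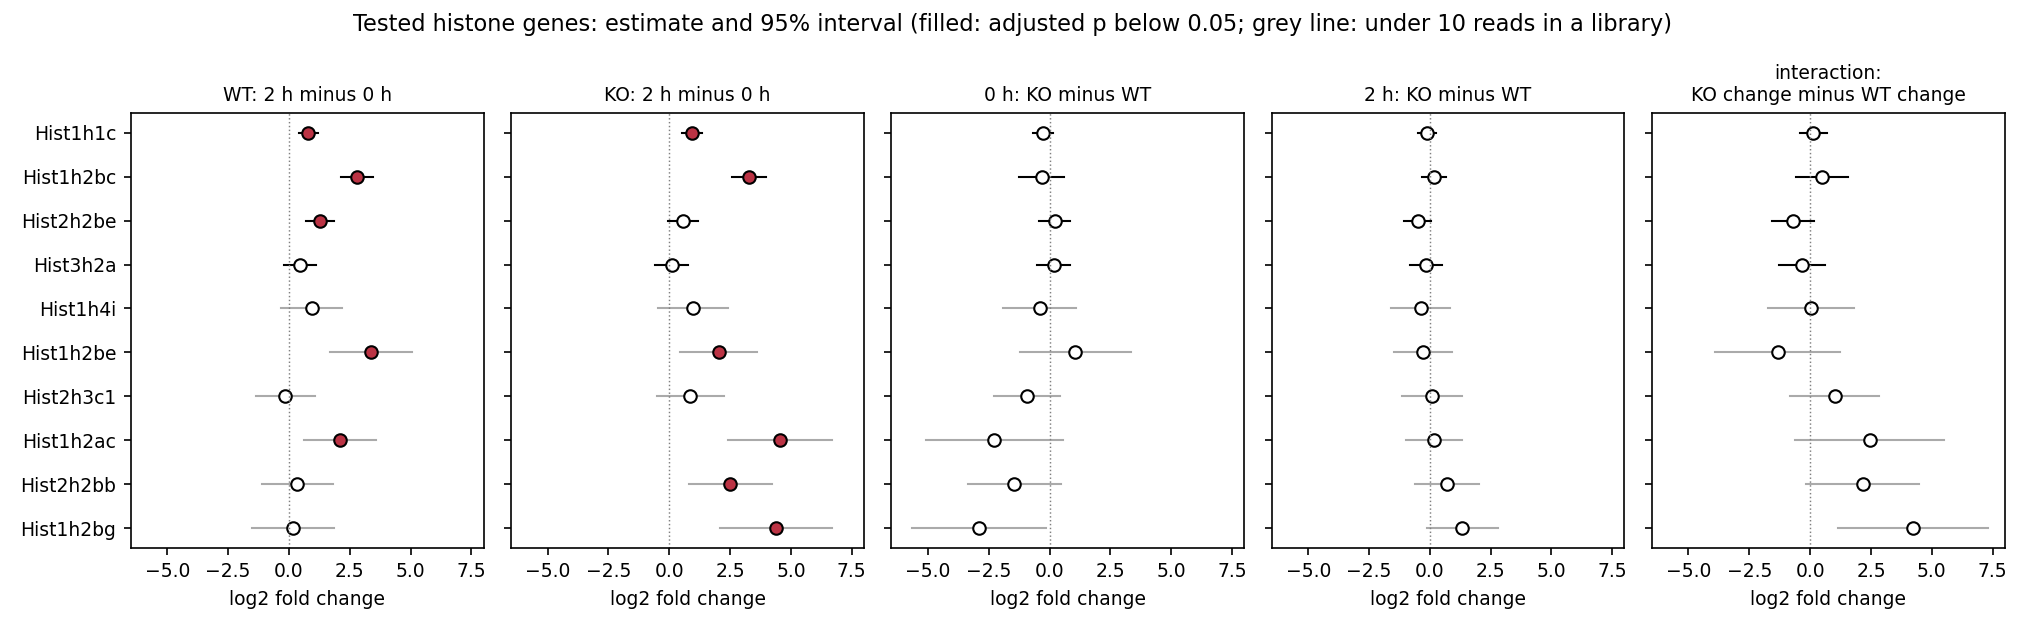
Log2 fold changes with 95% intervals of the 10 tested members in 5 comparisons, where filled points had an adjusted p below 0.05 and grey lines mark members with fewer than 10 reads in a library. Filled points occur in the comparisons of 2 h with 0 h, 5 for WT and 6 for KO, and in none of the other 3.

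The 64 members outside the well-read 4, 6 of them tested, gave sums of 3.88 to 5.21 CPM in libraries labelled 0 h and 6.80 to 9.95 CPM in those labelled 2 h. The H2B genes among them accounted for 0.735 to 1.07 and 2.00 to 3.64 CPM, and the H2A genes for 0.468 to 0.934 and 1.15 to 1.54 CPM. H1 genes other than Hist1h1c overlapped between the labels, at 0.497 to 1.0 and 0.611 to 0.863 CPM. The separation of the H2A and H2B sums came with Hist1h2ac, Hist1h2be, Hist1h2bg and Hist2h2bb, described above. Without them, the 16 untested H2A genes summed to 7 to 15 reads per library at 0 h and 7 to 13 at 2 h, and the 14 untested H2B genes to 4 to 10 and 4 to 15. Both ranges overlapped. These sums carry no test.

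H2A and H2B genes often lie head to head. In GENCODE M21, 14 pairs of members start within 1000 bases of each other on opposite strands, 13 of them an H2A with an H2B gene. Hist1h2ac and Hist1h2bc are such a pair, with 250 bases between them. Reads of both were more numerous in every library labelled 2 h than in any labelled 0 h. Because Hist1h2ac passed the filter only through the 2 h labels, this is a description and no support for a shared change. Hist1h2ae, the partner of Hist1h2bg, had 2, 2, 3 and 1 reads at 0 h and 1, 1, 0 and 3 at 2 h. Hist2h2ac and Hist2h2be are another, in which Hist2h2ac had 0 to 4 reads per library. Hist3h2a pairs with the pseudogene Hist3h2bb-ps, which had 0 to 5.

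The 250 bases upstream of Hist1h2ac are shown because they cover nearly all of the gap to Hist1h2bc, and those of Hist3h2a because it is a well-read member of the same arrangement that was not called. Sequences are from RefSeq on GRCm38.p6, a build other than the mm9 build named for the counts. Capitals mark the octamer ATTTGCAT, the CCAAT box and the TATA box (searched as TATAAA), each on either strand.
Hist1h2ac, chr13:23683960-23684209, minus strand: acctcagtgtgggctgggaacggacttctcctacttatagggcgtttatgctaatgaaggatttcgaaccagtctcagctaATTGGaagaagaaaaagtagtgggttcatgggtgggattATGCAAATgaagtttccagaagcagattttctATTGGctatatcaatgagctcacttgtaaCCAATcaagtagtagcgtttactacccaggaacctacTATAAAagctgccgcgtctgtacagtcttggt
Hist3h2a, chr11:58954435-58954684, plus strand: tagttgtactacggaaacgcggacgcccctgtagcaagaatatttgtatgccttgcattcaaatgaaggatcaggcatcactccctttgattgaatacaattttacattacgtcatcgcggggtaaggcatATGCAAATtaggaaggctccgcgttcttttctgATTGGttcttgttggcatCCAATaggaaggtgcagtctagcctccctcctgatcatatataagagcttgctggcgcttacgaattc
Both stretches hold the octamer, a sequence known from H2B promoters that Pou2f1 binds, and CCAAT. That of Hist1h2ac also holds TATAAA. The search counts only these exact letters, so TATA-like letters that differ from them, as in the Hist3h2a stretch, are not marked. It does not show that Hist3h2a lacks a TATA box. RefSeq windows of 300 bases (250 before and 50 after a start) were found for 61 members, in 62 windows. The octamer was in 14 of these (22.6%), 7 of 17 H2A and 7 of 17 H2B windows and none of H1, H3 or H4, against 1.74% of 32851 windows of all genes. CCAAT was in 85.5% of members' windows and 37.4% of all. It was in each window of H1, H2A, H2B and H3, but in 3 of 12 of H4. TATAAA was in 56.5% against 13.6%. Windows of head-to-head genes can overlap, so the same site can be counted in an H2A and an H2B window. The windows with a match are therefore not all separate sites. No window was found for Hist1h2bc or Hist2h2be. A match is a description of letters and no evidence of binding.

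Lists of S phase genes, histone variants, genes that process histone messages and histone chaperones gave another pattern between the time labels. Each held more genes lower than higher at 2 h, and only the S phase list was uniform. Over all tested genes 30.1% were higher and 31.1% lower in the WT labels, and 30.0% and 31.2% in the KO labels. All 22 S phase genes on the list, among them helicase subunits and nucleotide-synthesis enzymes, fell at 2 h in the WT labels (median log2 fold change -1.07, against 0.01 over all genes) and in the KO labels (-1.24, against -0.01). Mcm4, a subunit of the replicative helicase, stood at 323 ± 6.10 CPM in WT 0 h, 322 ± 5.31 in KO 0 h, 131 ± 4.32 in WT 2 h and 128 ± 4.58 in KO 2 h (mean ± SD, n = 2 each). Rrm1, the large subunit of ribonucleotide reductase, fell by 0.98 (SE 0.08) in WT and by 1.13 (SE 0.08) in KO on the log2 scale. Over the scalings, filters, tools and left-out libraries tried, 20 to 22 of the S phase genes were lower and none higher. The lists were chosen with earlier results of these data known.

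Of 12 histone variants, most of which are also made outside S phase, 9 were lower and none higher in the WT labels (median -0.77), and 9 lower and 1 higher in the KO labels (median -0.71). H3f3b, a gene for H3.3, the variant whose methylated form Zmynd11 binds, fell from 467 ± 16.5 to 314 ± 1.36 CPM in the WT labels (log2 fold change -0.57, SE 0.08) and from 495 ± 12 to 317 ± 30.2 CPM in the KO labels (-0.65, SE 0.08). H1f0, a linker histone known from resting and differentiated cells, fell by 1.53 on the log2 scale in WT (SE 0.09) and gave -1.496 in KO (SE 0.09, also called). It thus moved the other way from the linker histone Hist1h1c. H2afj, an H2A variant, gave 0.36 (SE 0.16, edgeR adjusted p = 0.0664) in WT and 0.45 (SE 0.16, edgeR adjusted p = 0.025) in KO. It was the 1 variant called higher, its KO libraries overlapped by time (106 and 71.6 CPM against 106 and 139 CPM), and no variant was called higher there with DESeq2 or without WT 0 h replicate 1, WT 0 h replicate 2, KO 0 h replicate 2 or KO 2 h replicate 2. H2afy, for macroH2A1, did not pass in either (edgeR adjusted p = 0.331 and 0.504).

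Of 20 genes for transcription and 3′ end processing of histone messages, 11 were lower and 4 higher in the WT labels (median -0.25), and 13 lower and 3 higher in the KO labels (median -0.39). The 4 higher calls in WT became 1 to 5, and the 11 lower ones 8 to 11, over the 15 alternatives tried. Ncbp1, a subunit of the cap-binding complex, fell by 0.71 (SE 0.08) and 0.88 (SE 0.08), while Sympk, a scaffold of the cleavage complex, rose by 0.24 (SE 0.08) and 0.40 (SE 0.08). Upf1, a helicase that takes part in histone mRNA decay, fell by 0.63 (SE 0.08) and 0.30 (SE 0.08). Srrt, also called Ars2, which links the cap-binding complex to 3′ end formation, gave -0.27 (SE 0.10) and -0.42 (SE 0.10), both called. Of 20 histone chaperones, 11 were lower and 3 higher in WT (median -0.41) and 14 lower and 3 higher in KO (median -0.55). Ssrp1, a subunit of the FACT complex, fell by 0.41 (SE 0.08) and 0.57 (SE 0.08), whereas Rbbp4, a histone-binding subunit of several complexes, did not pass (edgeR adjusted p = 0.208 and 0.97). Nap1l1, an H2A-H2B chaperone, gave -0.05 in WT (edgeR adjusted p = 0.669) and fell by 0.36 in KO (edgeR adjusted p = 0.00195). Between the genotype labels, Daxx, a chaperone of H3.3, was the 1 chaperone called at 2 h, where 1.59% of all tested genes were higher. It stood at 24.9 ± 0.344 CPM in WT 0 h, 90.1 ± 1.30 in KO 0 h, 41.8 ± 1.30 in WT 2 h and 168 ± 1.32 in KO 2 h (mean ± SD, n = 2 each), and the 4 groups did not overlap. Its KO minus WT difference was 1.86 ± 0.09 (SE) in log2 at 0 h and 2.01 ± 0.08 (SE) at 2 h, with edgeR adjusted p of 1.14e-13 and 1.16e-14. At 0 h Atrx and Hat1 were also called higher in KO, at 0.29 and 0.30 (edgeR adjusted p = 0.0468 and 0.0469), where 2.65% of all genes were higher. The 3 chaperones called at 0 h became 1 without WT 0 h replicate 1 or WT 0 h replicate 2, with RLE factors, with library size alone and with the replicate block. The other calls at 0 h, beside 3.92% of all genes in either direction, were Cpsf2 (0.27) and Casp8ap2 (0.39) of the processing list and H3f3a (0.49) and H2afx (-0.36) of the variants. No processing gene was called higher without WT 0 h replicate 1, WT 0 h replicate 2 or KO 0 h replicate 2, and 1 was called lower without the last. No variant was called without WT 0 h replicate 2 or KO 0 h replicate 2. No S phase gene was called between the genotype labels, and no gene of the processing or variant list was called at 2 h. These 7 genes are named after their values were seen.

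**Figure D5:**
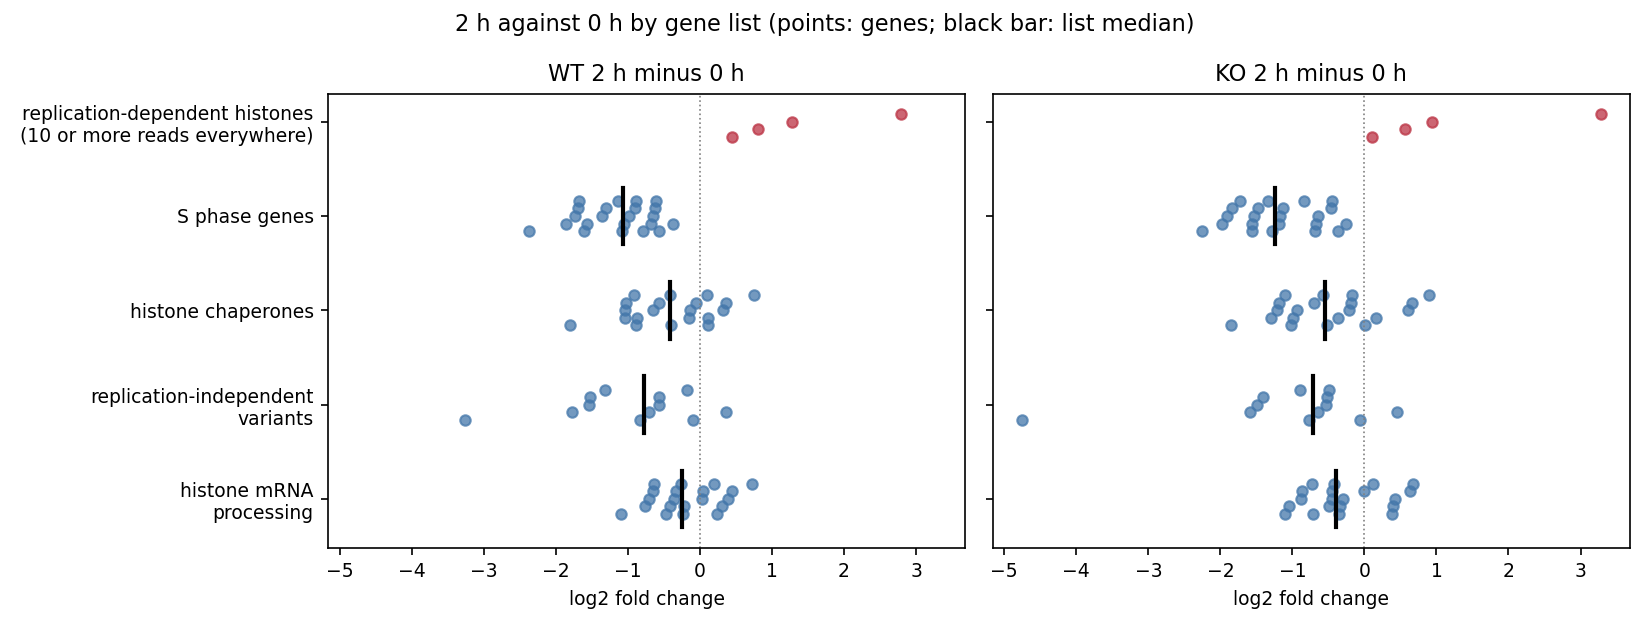
Log2 fold changes of 2 h against 0 h in the WT and KO labels, with a point for each tested gene of 4 lists and for the 4 histone members with 10 or more reads in every library, and black bars for list medians. The 22 S phase genes lie below 0 in both panels, and the 4 histone members lie above 0.

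Other measures that moved with the time labels are given here, and their part in these differences was not tested. Of the 6 fibroblast markers, 5 fell and Thy1 rose at the 2 h label in WT (median -1.65), and 4 fell and Thy1 rose in KO (median -1.54). The fibrillar collagen genes led, with Col1a1 at -3.50 in WT and -3.26 in KO. Of the 5 markers of other cells, 2 were tested and neither was called by edgeR. Reads in no annotated gene made up 12.8 to 13.3% of all reads in 3 libraries labelled 0 h, 17.3% in KO 0 h replicate 2, and 15.8 to 17.2% in those labelled 2 h. Reads mapping to several places made up 15.5 to 17.0% at 0 h and 14.1 to 15.6% at 2 h. KO 0 h replicate 2, which had reads in 17498 genes against 14847 to 15945 elsewhere, had the lowest sum over the histone members, at 15.3 CPM, and KO 0 h replicate 1 had 16.6 CPM. In these bulk samples fewer expressing cells and less RNA per cell cannot be told apart.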

How the data were processed

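RNA sequencing of 8 libraries in 4 labelled groups of 2 was deposited by the authors as raw counts of reads per gene symbol, in 1 table per library. The tools listed per the submitters' processing notes are STAR 2.5.2b, HTSeq and bcl2fastq 2.15, with mm9 as the build. No source used here says which role each had, which annotation was counted or how strand was treated, so overlapping genes cannot be told apart. The 4 summary lines (36.9 to 43.2% of reads) were left out.

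Counts were fitted with edgeR 4.0.16 in R 4.3.3: filterByExpr (minimum count 10, total 15), TMM scaling, 1 coefficient per group, robust quasi-likelihood tests, 4 residual degrees of freedom, Benjamini-Hochberg adjustment over 12807 genes, and a threshold of 0.05. Intervals are 95% and use the model's degrees of freedom. Alternatives were RLE factors, library size alone, DESeq2 1.42.0, 2 other filters on low counts, fits of the 4 libraries compared, replicate blocking, a 1.5-fold null and leaving out each library. By rule, the text names Zmynd11, members with 10 or more reads in every library, members called between genotypes, and up to 4 genes of highest mean CPM per list. The other 6 tested members, members named for their sequence, the marker genes and list genes called between genotypes were added after their values were seen. The members and lists were chosen with earlier results of these data known. The model was tested on simulated data. Of 67 genes changed 1.5-fold, it recovered 52 for WT 2 h against 0 h. For KO against WT at 0 h it recovered 46 of 67, and for the interaction 30 of 67. It also called 17, 8 and 7 unchanged genes in the same order. The simulated sets held 12567 to 12580 genes, so this recovery is not that of histone members with few reads. Transcript features are from GENCODE M21 and promoters from RefSeq (GRCm38.p6), matched by symbol or unique synonym for 67 of 68 members.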

Additional observations from a re-analysis of the deposited data

How the results depend on the processing

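Depth limits these results: 58 of 68 members were not tested, and every member's single value outside the best-read 4 rests on at most 20 reads per library. The count of members called between 2 h and 0 h was 5 for WT and 6 for KO, of which 2 and 4 are members that passed the filter only through libraries in which they were high. It fell to 3 for WT when tested against a fold of 1.5, where 1520 of all 12807 tested genes were higher in place of 3853. For KO it fell to 3 with a filter of 1 CPM in 2 libraries. There 5 members were tested, and 3783 of all 12069 tested genes were higher. Leaving out each library gave 4 to 6 for WT and 4 to 7 for KO. The replicate numbers did not pair the samples (correlations of replicate differences between groups -0.0533 to -0.0053), and with a replicate block the counts were 5 and 6. Hist1h2bc was called in both comparisons under all 16 alternatives. Library size alone called Hist2h2be in KO (0.71, edgeR adjusted p = 0.0459) and moved the summed CPM of WT 2 h to 14.98 for H1, 4.54 for H2A, 14.3 for H2B, 1.19 for H3 and 1.91 for H4, that of H3 in WT 0 h to 1.25 and that of H4 in KO 0 h to 0.9681. Its construction omits the composition factors.

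Sign changes occurred only in values that were not called, and the cause was not tested. The interaction of Hist1h4i was -0.0102 with the replicate block and -0.51 to 0.49 with a library left out. The other ranges over left-out libraries that crossed 0 were, for 2 h against 0 h, -0.12 to 0.39 for Hist3h2a in KO and -0.20 to 0.59 for Hist1h2bg in WT. For KO against WT at 0 h they were -0.17 to 0.55 for Hist3h2a, -0.84 to 0.15 for Hist1h4i, -0.55 to 0.0487 for Hist1h1c and -0.26 to 0.56 for Hist2h2be. At 2 h they were -0.88 to 0.092 for Hist1h4i, -0.74 to 0.15 for Hist1h2be, -0.28 to 0.46 for Hist1h2bc and -0.0476 to 0.16 for Hist2h3c1. The interaction of Hist1h1c ranged from -0.17 to 0.42.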
